A study of Mus musculus with 6 samples.

Results

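Imprinted genes were examined by locus in RNA sequencing of primary mouse osteoblasts, the bone-forming cells. A list of 37 imprinted genes in 16 chromosomal domains was looked up by gene identifier among the 55471 genes of the deposited count table, and all 37 were found. The cells came from the calvaria (skull cap) of C57BL/6 mice at 3 days of age. The WT group is labelled wild type, and the group labelled TCKO is a triple conditional knockout, homozygous for floxed (fl/fl) Tet1, Tet2 and Tet3 and carrying Prx1-Cre, with 3 libraries in each group. Prx1-Cre is a recombinase driven in limb and part of the skull mesenchyme, so cells of other origin in a culture keep intact Tet genes. Whether the WT mice carried floxed alleles or Cre, and how many animals gave 1 library, is not stated in the sources used here, so p-values measure the spread between these libraries.

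At an imprinted gene, RNA is made mainly from the copy inherited from 1 parent, because DNA methylation laid down in the egg or sperm marks the parental copies at an imprinting control region. Neighbouring genes often share such a region and can be read from opposite parental copies. TET enzymes oxidise methylated cytosine in DNA and take part in erasing these marks in the germ line. In an inbred strain the parental copies have the same sequence, and the counts here sum both copies.

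Total counts ranged from 8019999 to 10177214 per library. Of the targeted genes, Tet1 was lower in the libraries labelled TCKO (log2 fold change -0.97 ± 0.16, SE), Tet2 did not pass the test (-0.14), and Tet3 was higher (0.51 ± 0.09). The directions of all results therefore depend on the library labels being right. The counts sum all annotated exons of a gene, and which exons are removed is not stated. They thus do not measure the deletion itself. Replicates 1 and 2 of each group lay close together (chi-square per degree of freedom of 1.69 in WT and 2.04 in TCKO) and replicate 3 lay apart in both (16.6 to 23.3). Whether replicates 1 and 2 of a group came from 1 culture is not stated. If they did, the main fit and each SD over 3 libraries count that culture as 2 samples. Replicate 3 of TCKO had 4583 Xist counts and 0 Ddx3y counts, while the other libraries had at most 4 Xist counts and 675 to 1094 Ddx3y counts. The summed level of 7 osteoblast markers was 30190 to 32550 CPM (counts scaled to a library of 1000000 with TMM factors) in WT and 14260 to 22410 CPM in TCKO, and that of 5 chondrocyte markers was 6168 to 8038 CPM and 679 to 956 CPM. Skeletal muscle markers summed to 6.59 to 20 CPM in WT and 34.8 to 78.1 CPM in TCKO, and haematopoietic markers to 370 to 684 CPM and 153 to 528 CPM. Acta1 made up most of the muscle rise (mean 6.42 CPM in WT and 55.8 CPM in TCKO), while Myod1 and Myog had lower means in TCKO. Col1a1 (22330 CPM in WT) and Col1a2 (8800 CPM) made up nearly all of the osteoblast sum. Col2a1 and Lyz2 made up most of the chondrocyte and haematopoietic sums. Mitochondrial genes took 2.22% and 2.47% of counts in replicate 3 of WT and TCKO and 1.11% to 1.24% in the other libraries. Bglap, the late osteoblast marker osteocalcin, had at most 2 counts in a library. In such bulk samples fewer cells of a type and less RNA per cell cannot be told apart, and the part of cell makeup in the results was not tested.

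To ask which imprinted genes differed between the genotypes, all 13826 genes that passed the filter on low counts were tested together with edgeR's quasi-likelihood test, with Benjamini-Hochberg adjustment of p over all of them. Of the 37 listed genes, 28 passed the filter and 9 of these passed the test at an adjusted p under 0.05, or 32.1%, against 17.7% of all tested genes. H19, Zdbf2 and Nnat were higher in the libraries labelled TCKO (9.07% of all tested genes were higher), and Zim1, Sgce, Mest, Copg2, Plagl1 and Zrsr1 were lower (8.63% of all). With a fold change over 2 in addition, Zdbf2 and Nnat remained among the higher genes and Zim1, Mest and Plagl1 among the lower, which made 5 of 28, or 17.9%, against 6.35% of all tested genes (3.16% higher and 3.19% lower). At an unadjusted p under 0.05, 14 of the 28 genes passed, against 32.5% of all tested genes. The log2 fold changes of the 28 genes ran from -2.13 to 2.22, with 12 above 0 and 16 below and a median of -0.15, against 0.0002 for all tested genes. The median size of the log2 fold change, without its sign, was 0.48 for the listed genes and 0.22 for all tested genes. The CPM ranges of the genotypes did not overlap for 13 of the 28 genes, or 46.4%, against 38.3% of all tested genes. With the replicate number as a block, 14 listed genes passed in place of 9, the added genes being Peg10, Peg3, Peg12, Dlk1 and Rian, while 23.5% of all tested genes passed. With replicates 1 and 2 of each group summed, only Zdbf2, Zim1 and Plagl1 of the 28 passed, against 2.79% of all tested genes. With both the sums and the block 7 listed genes passed, against 8.32% of all, and of the 5 added genes only Peg10 and Dlk1 were among them.

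Split by the parental copy from which a gene is usually read, the changes had no common direction. Of 21 listed paternally expressed genes, 17 were tested, 2 were higher (Zdbf2 and Nnat) and 4 were lower (Sgce, Mest, Plagl1 and Zrsr1). Of 8 maternally expressed genes, 5 were tested, H19 was higher and Zim1 was lower. The other 8 genes are imprinted in some tissues or isoforms only, and of the 6 tested only Copg2, which was lower, passed.

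**Figure D1:**
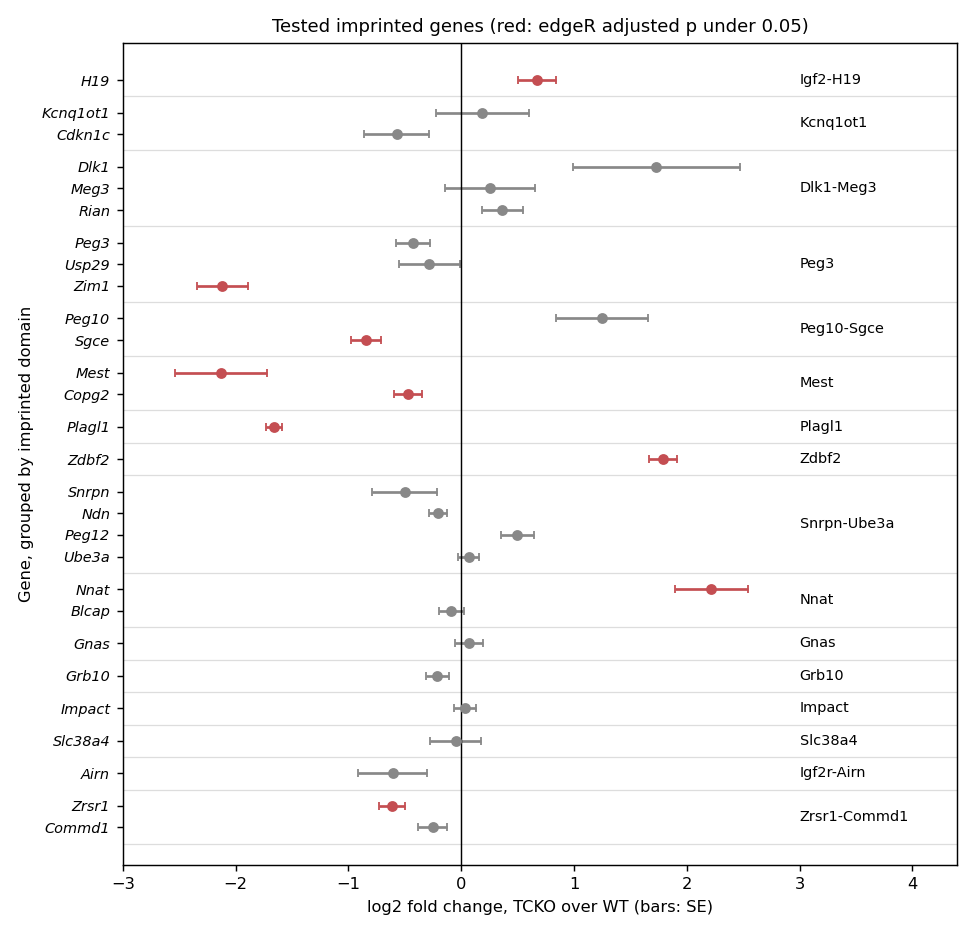
Log2 fold change of each tested listed gene in the libraries labelled TCKO against WT, grouped by imprinted domain, with the standard error of the edgeR fit as bars and red points for genes with an adjusted p under 0.05. The 9 red points lie on both sides of 0, from -2.13 (Mest) to 2.22 (Nnat), and domains such as Peg10-Sgce hold members on opposite sides.

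Promoter sequences were read for the changed genes, because imprinting control regions often lie at promoters and carry TGCCGC, the motif that the zinc finger protein ZFP57 binds when it is methylated. The RefSeq promoter windows (build GRCm38.p6, 300 bases each, reaching 50 bases past a start) covered 29 listed genes with 44 promoters. On either strand, TGCCGC was found in 11 of these 44, or 25%, against 19.4% of the promoters of tested genes and 11.6% of all 32851 promoters. Windows were counted and not genes, so the 11 include a pair of Mest windows that overlap almost fully and share their matches. GCCATNTT, a motif of the factor YY1, was found in 3 of the 44, or 6.82%, against 8.18% and 6.05%. The median number of CpG sites in a window was 13 for the listed genes, 20 for tested genes and 7 for all promoters. H19, Kcnq1, Cdkn1c, Rtl1, Peg10, Sgce, Nespas and Impact are the listed genes with no entry. For each of the 5 genes that changed over 2-fold, 1 window that holds the motif is given 5′ to 3′ on the strand of the gene, with each TGCCGC or its reverse complement GCGGCA in capitals. Windows were printed only where they hold the motif. The Zrsr1 window held 0 matches, although Zrsr1 passed the test. Copg2, which passed, and Grb10, Meg3, Commd1 and Snrpn, which did not, each had a window with 1 match. These matches describe the letters of the windows and are not evidence of binding.
Zdbf2, upstream start (chr1:63200108-63200407, + strand): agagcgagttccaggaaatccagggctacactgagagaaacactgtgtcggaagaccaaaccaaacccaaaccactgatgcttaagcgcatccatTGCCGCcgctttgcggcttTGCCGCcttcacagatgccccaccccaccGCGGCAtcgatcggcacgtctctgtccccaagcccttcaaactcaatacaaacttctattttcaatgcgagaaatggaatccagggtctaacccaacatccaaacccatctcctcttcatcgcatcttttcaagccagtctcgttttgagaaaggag
Nnat (chr2:157559828-157560127, + strand): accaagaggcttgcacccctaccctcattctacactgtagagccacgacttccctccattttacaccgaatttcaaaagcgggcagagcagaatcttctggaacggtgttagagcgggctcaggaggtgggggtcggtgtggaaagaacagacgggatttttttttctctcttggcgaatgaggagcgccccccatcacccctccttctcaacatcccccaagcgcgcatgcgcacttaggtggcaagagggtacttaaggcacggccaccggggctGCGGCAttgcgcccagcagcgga
Mest (chr6:30737800-30738099, + strand): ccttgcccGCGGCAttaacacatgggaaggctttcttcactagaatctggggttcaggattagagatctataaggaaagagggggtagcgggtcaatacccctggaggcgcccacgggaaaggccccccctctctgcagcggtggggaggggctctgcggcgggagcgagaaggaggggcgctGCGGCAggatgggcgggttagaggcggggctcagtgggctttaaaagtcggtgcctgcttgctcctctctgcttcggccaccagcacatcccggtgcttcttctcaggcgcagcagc
Zim1 (chr7:6696383-6696682, - strand): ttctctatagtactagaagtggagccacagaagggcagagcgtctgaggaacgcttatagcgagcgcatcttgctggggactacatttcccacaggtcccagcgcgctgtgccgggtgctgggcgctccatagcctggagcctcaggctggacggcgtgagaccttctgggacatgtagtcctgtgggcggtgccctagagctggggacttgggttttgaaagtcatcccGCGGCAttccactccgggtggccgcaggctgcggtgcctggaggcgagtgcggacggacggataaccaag
Plagl1 (chr10:13090582-13090881, + strand): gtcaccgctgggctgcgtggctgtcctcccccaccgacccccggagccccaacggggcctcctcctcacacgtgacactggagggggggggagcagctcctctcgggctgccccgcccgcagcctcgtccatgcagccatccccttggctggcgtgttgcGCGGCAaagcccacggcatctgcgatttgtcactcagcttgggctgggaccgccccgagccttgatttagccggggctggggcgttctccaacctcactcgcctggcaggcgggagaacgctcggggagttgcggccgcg
The printed windows of Zdbf2 and Mest held 3 and 2 matches, and those of Nnat, Zim1 and Plagl1 held 1 each. The upstream Zdbf2 window lies outside the deposited gene span, and the window at the other RefSeq start of Zdbf2 (chr1:63273019-63273318) held 0 matches and 38 CpG sites. Of the other RefSeq windows of Mest, 1 lies 3 bases from the printed window and holds the same 2 matches, and the window at chr6:30733256-30733555 held 0 matches and 8 CpG sites.

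In the Zdbf2 domain on chromosome 1, Zdbf2 rose 3.46-fold. Zdbf2 (ENSMUSG00000027520, chromosome 1, 63273265 to 63314576, + strand, GRCm38) encodes a zinc finger protein read from the paternal copy. For replicates 1, 2 and 3 in this order, it had 188, 203 and 156 counts across the WT libraries, compared with 572, 534 and 738 in those labelled TCKO. Every TCKO library was above every WT library, and replicate 3 was the lowest of the WT libraries and the highest of TCKO. Normalised levels averaged 20.6 ± 1.96 CPM in WT, compared with 71.5 ± 9.80 CPM in TCKO (SD, n = 3), and the log2 fold change was 1.79 ± 0.12 (SE, edgeR adjusted p = 0.000142). The gene passed under all 16 alternatives, with an adjusted p of at most 0.0135. Its neighbour Gpr1, a chemerin receptor gene imprinted at the same control region, gave WT counts of 7, 7 and 3, compared with 44, 44 and 63 in the TCKO libraries. The log2 fold change of Gpr1 was 3.17 ± 0.33 (edgeR adjusted p = 0.000833, at most 0.0315 under the 15 alternatives that tested it). Zdbf2 and Gpr1 were thus higher in every TCKO library than in any WT library. Adam23, also placed in this domain, did not pass and had overlapping groups (-0.27 ± 0.15, adjusted p = 0.252).

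Plagl1 was the lower gene with the least spread between libraries. It encodes a zinc finger transcription factor that restrains cell growth and is read from the paternal copy (ENSMUSG00000019817, chromosome 10, 13060504 to 13131694, + strand). Counts were 2199, 2687 and 2045 in the WT libraries and 712, 653 and 760 in the libraries labelled TCKO. The groups lay far apart and each held together closely, with a mean of 261 ± 11.2 CPM for WT against 82.6 ± 2.33 CPM for TCKO (SD, n = 3). The level fell 3.16-fold, a log2 fold change of -1.66 ± 0.07 (SE, edgeR adjusted p = 3.03e-05), and passed under all 16 alternatives, with an adjusted p of at most 0.0118. The difference was of similar size in replicates 1 and 2 (-1.69 in log2 of CPM plus 2) and in replicate 3 (-1.52).

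In the Peg3 domain on chromosome 7, Zim1 fell while its neighbours did not pass the test. Zim1 is a zinc finger gene read from the maternal copy (ENSMUSG00000002266, chromosome 7, 6671269 to 6696450, - strand). It held 361, 396 and 205 counts in the WT libraries, against 74, 74 and 65 in the libraries labelled TCKO, so that the groups did not overlap and WT replicate 3 lay nearest to TCKO. Mean levels were 36.0 ± 9.90 CPM and 8.31 ± 0.961 CPM (SD, n = 3), a fall of 4.34-fold, with a log2 fold change of -2.12 ± 0.22 (SE, edgeR adjusted p = 0.000928). All 16 alternatives kept the call, with an adjusted p of at most 0.0343. Peg3, the paternally read zinc finger gene of the domain, had 3196, 3695 and 2184 counts across the WT libraries, compared with 2451, 1978 and 2072 in TCKO, and its groups overlapped. Its log2 fold change of -0.43 ± 0.15 did not pass (adjusted p = 0.0854), but with the replicate block it was -0.41 and passed (adjusted p = 0.0197), a call lost with the block on the sums of replicates 1 and 2 (0.177). The adjusted p of Peg3 ran from 0.00645 without WT replicate 3 to 0.4 with replicates 1 and 2 summed. Usp29, a paternally read gene beside Peg3, had between 17 and 38 counts in a library and did not pass (-0.28, adjusted p = 0.516). The ratio of Zim1 to Peg3 counts was 0.113, 0.107 and 0.0939 in WT and 0.0302, 0.0374 and 0.0314 in TCKO. The ratios did not overlap, and the two-sided exact permutation test gave p = 0.1, the smallest that 3 against 3 allows, for this and each of the other ratios of neighbours (6 in all, 0.1 also after Benjamini-Hochberg adjustment over the 6). The pairs were chosen after their values were seen, so this p and the lack of overlap are no independent support for any pair.

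In the Mest domain on chromosome 6, both listed genes were lower. Mest encodes a hydrolase-fold protein of mesoderm and is read from the paternal copy (ENSMUSG00000051855, chromosome 6, 30723547 to 30748465, + strand). Its counts were 1353, 1538 and 398 in the WT libraries and 262, 232 and 221 in the libraries labelled TCKO. WT replicate 3 held far fewer counts than the other WT libraries but more than any TCKO library. Mean CPM was 122 ± 64.0 in the WT group and 27.9 ± 2.7 in the TCKO group (SD, n = 3), and the log2 fold change was -2.13 ± 0.41 (SE, edgeR adjusted p = 0.0112). The difference was -2.36 in replicates 1 and 2 and -0.91 in replicate 3, in log2 of CPM plus 2. Over the alternatives the log2 fold change ran from -1.75 to -2.51, and the call was lost only with replicates 1 and 2 summed (adjusted p = 0.145).

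Copg2, which encodes a subunit of the coat of Golgi vesicles, lies on the opposite strand and meets the end of Mest (ENSMUSG00000025607, chromosome 6, 30747554 to 30896794, - strand). It gave WT counts of 291, 374 and 239, compared with 227, 207 and 194 in the libraries labelled TCKO, and its CPM ranges did not overlap. Normalised levels averaged 33.8 ± 4.35 CPM in WT, compared with 24.5 ± 2.35 CPM in TCKO (SD, n = 3), and the log2 fold change was -0.47 ± 0.13 (SE, edgeR adjusted p = 0.0381). The call was lost without WT replicate 1 (adjusted p = 0.132), WT replicate 2 (0.147), TCKO replicate 1 (0.0854), TCKO replicate 2 (0.09) or TCKO replicate 3 (0.069), and over all alternatives the adjusted p ran from 0.0102 to 0.255. Exons of the genes share 912 bases, 23.1% of the exon bases of Mest and 17.8% of those of Copg2. The strand setting of the counting is not stated, so reads of this stretch may be split between them. The Mest to Copg2 count ratio was 4.65, 4.11 and 1.67 in WT and 1.15, 1.12 and 1.14 in TCKO (exact permutation p = 0.1).

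In the Peg10-Sgce domain on chromosome 6, the neighbours had changes of opposite sign although their starts lie only 99 bases apart and both are read from the paternal copy. Sgce encodes epsilon-sarcoglycan, a membrane protein of the dystrophin-associated complex (ENSMUSG00000004631, chromosome 6, 4674350 to 4747207, - strand). It held 254, 320 and 202 counts in the WT libraries, against 131, 129 and 157 in the libraries labelled TCKO, with no overlap of the groups. Mean CPM was 29.1 ± 4.0 in the WT group and 16.2 ± 1.34 in the TCKO group (SD, n = 3), and the log2 fold change was -0.84 ± 0.13 (SE, edgeR adjusted p = 0.00502). It passed in 14 of 16 alternatives, and not with replicates 1 and 2 summed, without (adjusted p = 0.11) or with (0.0622) the block. Peg10, a gene derived from a retrotransposon and needed in the placenta, had 329, 389 and 543 counts across the WT libraries, compared with 682, 564 and 1735 in TCKO. Replicate 3 was the highest library of Peg10 in both groups, and the lowest TCKO level was above the highest WT level. Its log2 fold change of 1.25 ± 0.41 did not pass (adjusted p = 0.0718, from 0.000907 to 0.233 over the alternatives), but with the replicate block it was 1.14 and passed (0.00231), as with the block on the sums of replicates 1 and 2 (0.0197). Without TCKO replicate 3 the log2 fold change of Peg10 was 0.63 (adjusted p = 0.0842). The count ratio of Peg10 to Sgce was 1.3, 1.22 and 2.69 in WT and 5.21, 4.37 and 11.1 in TCKO, with means of 1.73 and 6.88. Each TCKO ratio exceeded each WT ratio (exact permutation p = 0.1). Farther along the same domain, Tfpi2, which encodes a protease inhibitor, gave WT counts of 14, 24 and 26, compared with 143, 167 and 128 in the TCKO libraries. Its log2 fold change was 2.82 ± 0.25 (adjusted p = 0.000443, at most 0.0193 under 16 alternatives).

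**Figure D2:**
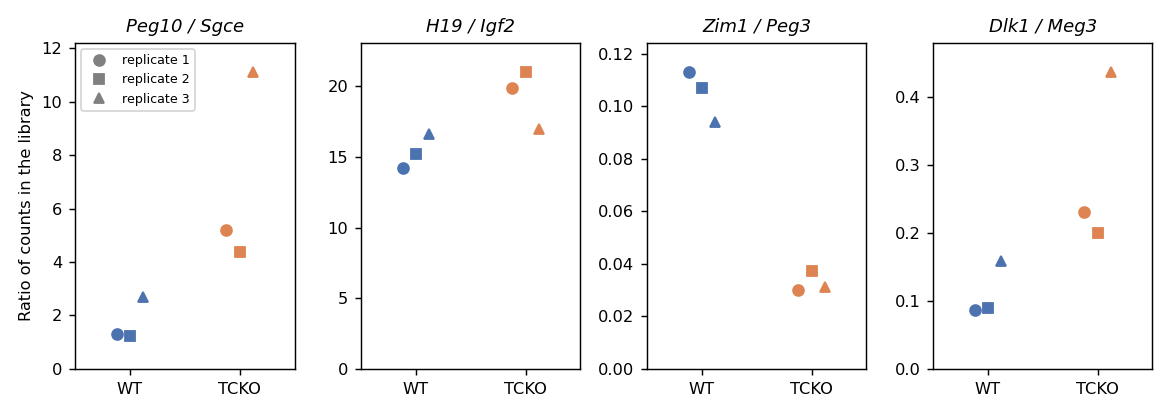
Ratio of counts of neighbouring imprinted genes in each library, in 4 panels with a linear axis from 0, for WT and the libraries labelled TCKO, with the marker shape giving the replicate number. In each pair the 3 TCKO points do not overlap the 3 WT points, as for Peg10 to Sgce (1.22 to 2.69 in WT and 4.37 to 11.1 in TCKO). The pairs were chosen after their values were seen.

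In the Igf2-H19 domain on chromosome 7, H19 was 1.59-fold higher. H19 is a long noncoding RNA read from the maternal copy (ENSMUSG00000000031, chromosome 7, 142575529 to 142578143, - strand). It held 14777, 18191 and 18257 counts in the WT libraries, against 30399, 27857 and 20859 in the libraries labelled TCKO, with replicate 3 the lowest of TCKO and the highest of WT. Normalised levels averaged 1939 ± 238 CPM in WT, compared with 3091 ± 651 CPM in TCKO (SD, n = 3), and the log2 fold change was 0.67 ± 0.17 (SE, edgeR adjusted p = 0.0322). The groups did not overlap, but the difference was 0.94 in replicates 1 and 2 and 0.08 in replicate 3, in log2 of CPM plus 2. The call was lost without WT replicate 1 (adjusted p = 0.128), WT replicate 2 (0.127), TCKO replicate 1 (0.118) or TCKO replicate 2 (0.114). It was also lost with replicates 1 and 2 summed, without (0.338) or with (0.3) the block. Over all alternatives the adjusted p ran from 0.000448 to 0.338. Igf2, the paternally read growth factor gene of the domain, had 1038, 1196 and 1098 counts across the WT libraries, compared with 1531, 1325 and 1224 in TCKO, and its change of 0.33 ± 0.10 (log2, SE) did not pass (adjusted p = 0.0590). The H19 to Igf2 count ratio was 14.2, 15.2 and 16.6 in WT and 19.9, 21 and 17 in TCKO (exact permutation p = 0.1). Igf2 shares 64.5% of its exon bases with other annotated genes, 62.8% with Gm49394 on the same strand, which had 0 counts. How reads of shared bases were counted is not stated, which limits the level of Igf2 and this ratio.

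H19 and Mest both contain microRNA genes, and the mature sequences are given from RefSeq with the seed (bases 2 to 8) in capitals. An exon of H19 holds Mir675, and the span of Mest holds Mir335 outside its annotated exons.
mmu-miR-675-5p: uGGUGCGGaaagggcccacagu
mmu-miR-675-3p: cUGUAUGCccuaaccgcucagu
mmu-miR-335-5p: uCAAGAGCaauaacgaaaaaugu
mmu-miR-335-3p: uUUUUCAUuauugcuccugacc
None of the 4 seeds is shared. Poly(A) libraries do not measure mature microRNAs, so the changes of H19 and Mest give no level for them.

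In the Nnat domain on chromosome 2, Nnat was higher at a low level and its host gene did not pass the test. Nnat encodes neuronatin, a membrane protein of the endoplasmic reticulum known from neurons and fat, and lies inside an intron of Blcap (ENSMUSG00000067786, chromosome 2, 157560078 to 157562522, + strand). It gave WT counts of 11, 14 and 15, compared with 47, 47 and 89 in the libraries labelled TCKO, every TCKO library being above every WT library. Mean CPM was 1.52 ± 0.264 in the WT group and 7.06 ± 2.54 in the TCKO group (SD, n = 3), and the log2 fold change was 2.22 ± 0.32 (SE, edgeR adjusted p = 0.00356). It passed in 14 of the 15 alternatives that tested it and reached 0.0559 with replicates 1 and 2 summed. Of 5 neuron markers, summed at 58.6 to 75.4 CPM in WT and 73.2 to 81.8 CPM in TCKO, Tubb3 made up nearly all, and the others had at most 7 counts in a library. Blcap itself held 943, 1175 and 943 counts in the WT libraries, against 886, 777 and 1136 in TCKO, and did not pass (-0.09 ± 0.11, adjusted p = 0.623). The ratio of Nnat to Blcap counts was 0.0117, 0.0119 and 0.0159 in WT and 0.053, 0.0605 and 0.0783 in TCKO, without overlap (exact permutation p = 0.1).

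In the Zrsr1-Commd1 domain on chromosome 11, Zrsr1 fell 1.53-fold. Zrsr1 encodes a protein related to the splicing factor U2AF, is read from the paternal copy and lies within Commd1 (ENSMUSG00000044068, chromosome 11, 22972005 to 22976496, + strand). It had 267, 275 and 229 counts across the WT libraries, compared with 163, 143 and 185 in those labelled TCKO, with no overlap. Normalised levels averaged 29.2 ± 2.73 CPM in WT, compared with 19.04 ± 1.54 CPM in TCKO (SD, n = 3), and the log2 fold change was -0.61 ± 0.11 (SE, edgeR adjusted p = 0.00925). The gene passed in 14 of 16 alternatives, and not with replicates 1 and 2 summed, without (adjusted p = 0.129) or with (0.0728) the block. Commd1, a gene of copper handling, had between 128 and 191 counts and did not pass (-0.25 ± 0.13, adjusted p = 0.227). Their exons share 412 bases on opposite strands.

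**Figure D3:**
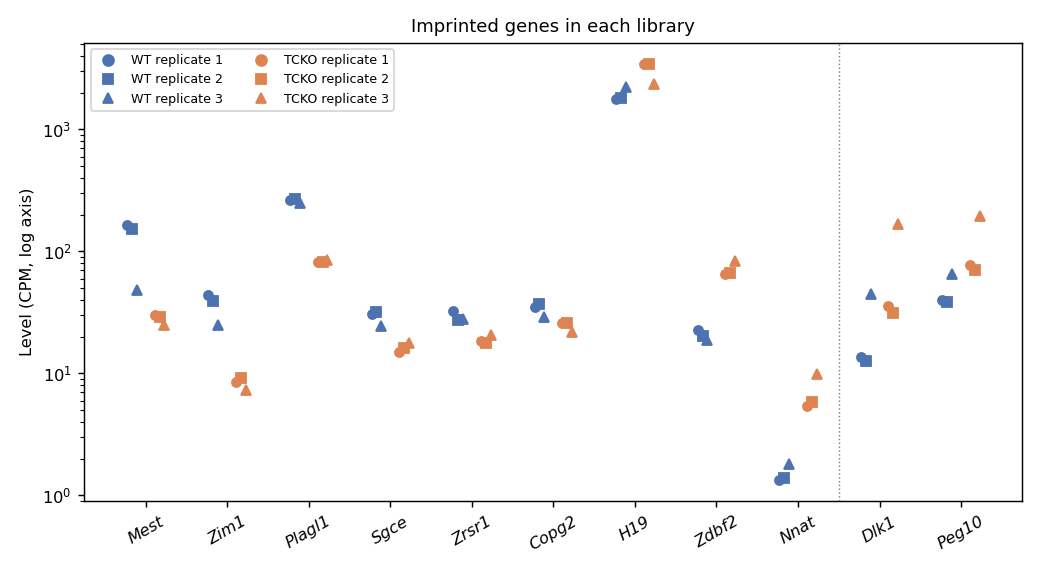
Level of each of the 9 listed genes with an adjusted p under 0.05, with Dlk1 and Peg10, in each of the 6 libraries as TMM-scaled CPM, on a log axis, with the marker shape giving the replicate number. For the 9 genes all 3 libraries labelled TCKO lie on 1 side of all 3 WT libraries, while for Dlk1 they overlap.

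The Dlk1-Meg3 domain on chromosome 12 held no listed gene that passed, and Dlk1 had the largest standard error of the 28 tested genes. Dlk1, a membrane protein of precursor cells read from the paternal copy, gave WT counts of 112, 127 and 370, compared with 315, 252 and 1483 in the libraries labelled TCKO. Replicate 3 was the highest library in both groups, and the groups overlapped through WT replicate 3. Its log2 fold change was 1.73 ± 0.74 and did not pass (adjusted p = 0.152). Within replicate numbers the difference was 1.23 in replicates 1 and 2 and 1.85 in replicate 3, and with the replicate block Dlk1 passed (1.58, adjusted p = 0.000495), as with the block on the sums of replicates 1 and 2 (0.00799). Without TCKO replicate 3 the log2 fold change was 0.52 (adjusted p = 0.502), the highest p over the alternatives. Meg3, a maternally read long noncoding RNA, held 1285, 1428 and 2341 counts in the WT libraries, against 1363, 1261 and 3402 in TCKO (0.26 ± 0.40, adjusted p = 0.703). Rian, another maternal noncoding RNA, had 1388, 1680 and 1833 counts across the WT libraries, compared with 1751, 1733 and 2705 in TCKO, and its log2 fold change of 0.37 ± 0.18 (adjusted p = 0.200) passed with the replicate block (0.35, adjusted p = 0.0143) but not with the block on the sums of replicates 1 and 2 (0.109). Dio3, at the far end of the domain, encodes the enzyme that inactivates thyroid hormone and gave WT counts of 308, 364 and 101, compared with 28, 16 and 10 in the TCKO libraries. Its log2 fold change was -3.76 ± 0.52 (adjusted p = 0.00281), and the call was lost only with replicates 1 and 2 summed (0.0568). The Dlk1 to Meg3 count ratio was 0.0872, 0.0889 and 0.158 in WT and 0.231, 0.2 and 0.436 in TCKO (exact permutation p = 0.1).

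**Figure D4:**
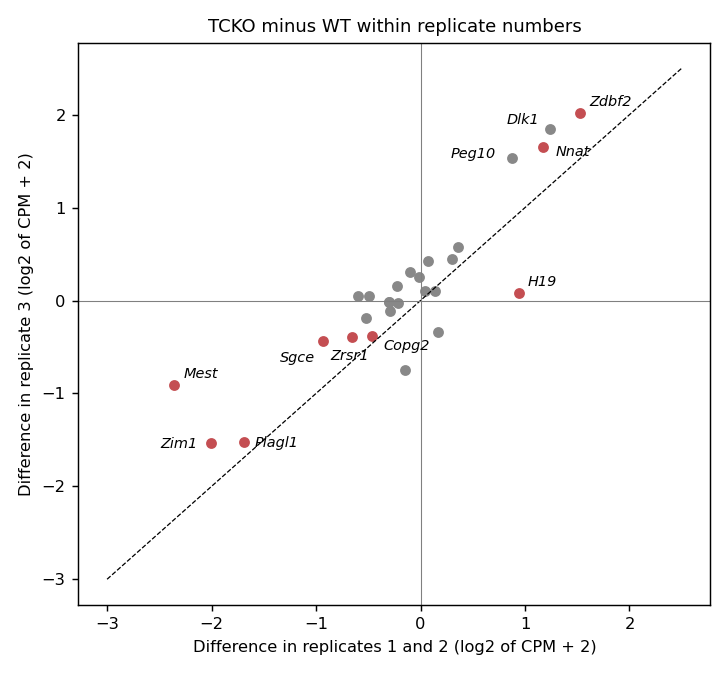
Difference of each tested listed gene between the libraries labelled TCKO and WT in log2 of CPM plus 2, taken in replicates 1 and 2 (horizontal axis) and in replicate 3 (vertical axis), with red points for genes with an adjusted p under 0.05 and a dashed line of equality. Zdbf2 (1.53 and 2.02) and Plagl1 (-1.69 and -1.52) lie near the line, while H19 (0.94 and 0.08) and Mest (-2.36 and -0.91) lie away from it.

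The differences within replicate numbers had the same sign in both replicate sets for 22 of the 28 tested genes, or 78.6%, and the opposite sign for 6, against 69.1% of all tested genes with the same sign. The 9 genes that passed were among the 22. They were picked by a test on the same libraries, so their shared sign is no independent support.

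In the Kcnq1ot1 domain on chromosome 7, neither tested gene passed. Cdkn1c, a maternally read inhibitor of the cell cycle, held 81, 79 and 36 counts in the WT libraries, against 44, 42 and 41 in the libraries labelled TCKO. WT replicate 3 lay below every TCKO library, and the other WT libraries lay above them. The log2 fold change was -0.57 ± 0.29 (adjusted p = 0.217), and without WT replicate 3 it passed (adjusted p = 0.0221), the lowest over the alternatives, which reached 0.597. Kcnq1ot1, the paternal noncoding RNA that silences the domain, had between 15 and 49 counts (0.19 ± 0.41, adjusted p = 0.795).

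In the Snrpn-Ube3a domain on chromosome 7, none of the 4 tested genes passed. Ndn, a MAGE family gene read from the paternal copy, was best measured, with 1680, 2126 and 1546 counts in the WT libraries, against 1468, 1362 and 1657 in those labelled TCKO. Its CPM ranges did not overlap, at 201 ± 12.6 CPM for WT against 174 ± 10.1 CPM for TCKO (SD, n = 3), but the log2 fold change of -0.21 ± 0.08 did not pass (adjusted p = 0.117). Peg12, read from the paternal copy, had 107, 120 and 108 counts across the WT libraries, compared with 158, 121 and 183 in TCKO. The change of 0.50 ± 0.14 (log2, SE) lay at the threshold (adjusted p = 0.05005) and passed with the replicate block (0.03) but not with the block on the sums of replicates 1 and 2 (0.115). Over the alternatives the adjusted p of Peg12 ran from 0.03 to 0.216. Snrpn, a component of the splicing machinery, had between 28 and 71 counts (-0.50, adjusted p = 0.272), and Ube3a, a ubiquitin ligase imprinted in neurons, had between 793 and 1094 (0.07, adjusted p = 0.686). Snrpn and Ube3a share exon bases with other annotated genes, 34.1% and 27.3% of their own. In other domains Cdkn1c (30.7%), Gnas (21.6%) and Nespas (38.5%) also share exon bases. How reads of such bases were counted is not stated.

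The 5 domains that remain held no listed gene that passed. Grb10, an adaptor that dampens insulin and growth factor signalling, gave WT counts of 9344, 11224 and 7451, compared with 8027, 7346 and 7975 in the libraries labelled TCKO. Its groups overlapped and the log2 fold change was -0.21 ± 0.10 (adjusted p = 0.204), with a pass without WT replicate 3 (adjusted p = 0.0201). Impact, a regulator of translation, held 1048, 1226 and 906 counts in the WT libraries, against 974, 968 and 1215 in TCKO (0.03 ± 0.10, adjusted p = 0.839). Gnas, which encodes the stimulatory G protein subunit, had 413, 405 and 298 counts across the WT libraries, compared with 402, 348 and 387 in TCKO (0.07 ± 0.12, adjusted p = 0.746). All of these levels overlapped between the groups. Slc38a4, an amino acid transporter gene, gave WT counts of 258, 364 and 490, compared with 326, 313 and 414 in the TCKO libraries (-0.05 ± 0.23, adjusted p = 0.909). Airn, the noncoding RNA that silences Igf2r from the paternal copy, held 22, 38 and 47 counts in the WT libraries, against 22, 23 and 23 in TCKO (-0.61 ± 0.31, adjusted p = 0.217). Igf2r, the receptor that clears insulin-like growth factor, did not pass either (-0.20 ± 0.07, adjusted p = 0.0990).

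The other 9 listed genes were too low to test. Slc22a3, a transporter gene, had 0 counts in all 6 libraries, which allows a level of up to 0.299 to 0.373 CPM in a library. Kcnq1, a potassium channel gene, had 1 count in 1 WT library. Magel2 (a MAGE family gene), Phlda2 (which restrains placental growth), Ddc (an amino acid decarboxylase), Ascl2 (a transcription factor), Nespas (an antisense RNA of the Gnas domain) and Rtl1 (derived from a retrotransposon) had at most 9 counts in a library. Mkrn3, a zinc finger gene of the Snrpn-Ube3a domain, had 2, 6 and 4 counts across the WT libraries, compared with 8, 13 and 11 in those labelled TCKO. Every TCKO library was above every WT library for Mkrn3, at these low counts. The main fit tested none of these 9 genes, and none passed with no filter beyond 1 count. They are not shown to be equal between the groups.

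Levels were compared between genes as RPKM, CPM per kilobase of summed exon length. In WT the level was highest for H19 at 788 RPKM, followed by Grb10 at 116, Ndn at 54.4, Blcap at 37.9, Plagl1 at 33.4 ± 1.43, Mest at 30.9 ± 16.2 and Peg3 at 25.0 ± 4.84 RPKM (SD, n = 3). Plagl1, Mest and Peg3 lay within the spread of Mest of each other. The lowest tested levels were those of Nnat at 0.829, Usp29 at 0.166 and Kcnq1ot1 at 0.0357 RPKM. In the libraries labelled TCKO, H19 stood at 1256, Plagl1 at 10.6, Mest at 7.06, Peg10 at 17.1 and Zdbf2 at 5.65 RPKM, where Peg10 had been at 7.22 and Zdbf2 at 1.63 RPKM in WT.

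**Figure D5:**
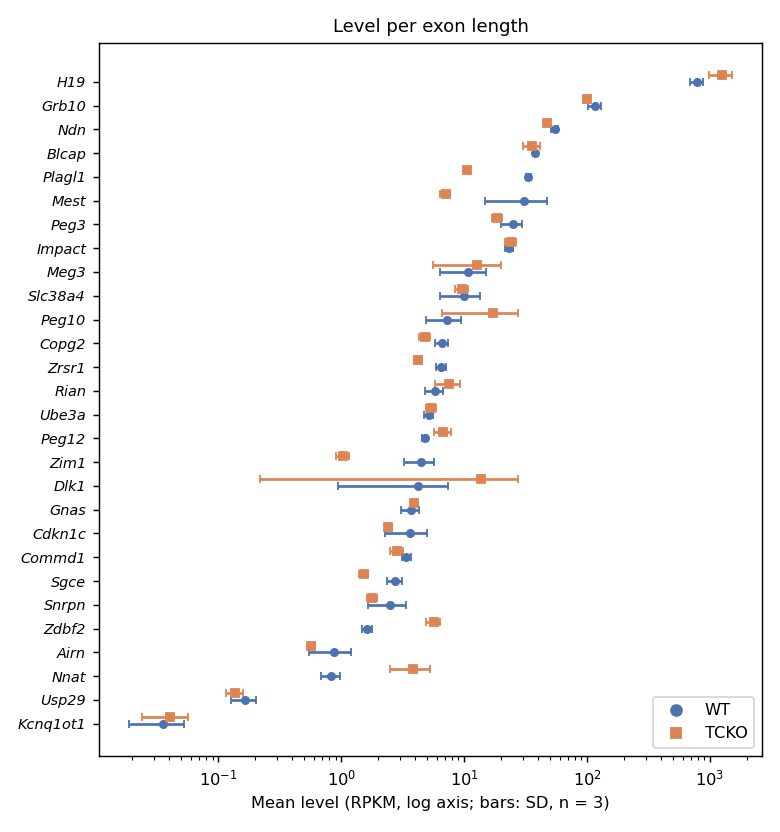
Mean level of each tested listed gene in RPKM on a log axis, ordered by the WT level, for WT and the libraries labelled TCKO, with bars of 1 SD over 3 libraries. The levels span from 0.0357 (Kcnq1ot1) to 788 RPKM (H19) in WT, and Zim1, Mest and Plagl1 lie to the left of their WT points while Zdbf2 and Nnat lie to the right.

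A second list of 44 imprinted genes, from the same domains and others, was counted beside the first. Of these 30 were tested and 11 passed, or 36.7% (17.7% of all tested genes), with 4 higher and 7 lower and a median log2 fold change of -0.10. The second list was not sorted by parental copy or by tissue. Its share therefore does not describe genes known to be imprinted in osteoblasts. Besides Gpr1 and Tfpi2, the higher genes were Htr2a, a serotonin receptor gene (1.17 ± 0.25, adjusted p = 0.0172), and Ago2, which encodes the protein that carries microRNAs (0.49 ± 0.08, adjusted p = 0.00518). Htr2a lost its call without WT replicate 1 (0.0728) or WT replicate 2 (0.0799), and with replicates 1 and 2 summed (0.139). Besides Dio3, the lower genes included Slc22a18, a transporter gene of the Kcnq1ot1 domain that gave WT counts of 18, 16 and 10, compared with 4, 3 and 2 in the libraries labelled TCKO (-2.20 ± 0.43, adjusted p = 0.0122). Cd81, a tetraspanin gene of that domain, was also lower (-0.54 ± 0.10, adjusted p = 0.00976), as were Peg13, a paternal noncoding RNA (-0.60 ± 0.12, adjusted p = 0.0121), Atp10a, a lipid flippase gene (-0.76 ± 0.19, adjusted p = 0.0295), Cobl, an actin nucleator gene (-1.22 ± 0.34, adjusted p = 0.0448) and Dhcr7, of cholesterol synthesis (-0.45 ± 0.13, adjusted p = 0.0446). Each of these last 5 lost its call in at least 2 of the fits that left out 1 library. Without WT replicate 1 the adjusted p was 0.0546 for Peg13 and 0.106 for Atp10a, and without WT replicate 2 it was 0.0511 for Cd81, 0.0589 for Peg13 and 0.0951 for Atp10a. Without TCKO replicate 1 it was 0.0502 for Cd81, 0.0528 for Peg13 and 0.0848 for Atp10a, while Cobl and Dhcr7 lost their calls in 5 of the 6 such fits, with values up to 0.156 and 0.137.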

How the data were processed

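Poly(A) RNA of 6 libraries was sequenced, 3 WT and 3 TCKO. The authors aligned reads to GRCm38 with STAR 2.7.0e and counted them per gene over Ensembl 99 exons with featureCounts 2.0.0, per the labels and the study's methods. The deposited table holds raw counts per gene, not normalized. The strand setting of the counting was not given in the sources used here. No column was unassigned (0), and 0 rows lacked a gene. Gene symbols were matched by identifier for 99.4% of genes.

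Counts were tested with edgeR 4.0.16 in R 4.3.3, with TMM factors, filterByExpr defaults, glmQLFit and glmQLFTest on the 6 libraries with no covariate, and Benjamini-Hochberg adjustment over 13826 tested genes, which held 99.7% to 99.8% of the counts. A standard error is the log2 fold change over the square root of its F statistic. Differences within replicate numbers were taken as log2 of CPM plus 2. A count of 0 was given a limit of 3 counts, 0.299 to 0.373 CPM in a library, which covers counting error only. The test was checked on simulated counts.

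The members and gene lists were chosen with earlier results of these data known. Values per library were given for listed genes with an adjusted p under 0.05 and for the best measured gene of other domains. The further genes given per library and the ratios of neighbours were chosen after their values were seen. Other imprinted genes were named where they passed, with Igf2 and Igf2r.

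Deviations from the group means of same-numbered libraries correlated at 0.204, 0.214 and 0.347 across genes. The replicate numbers were therefore used in the block alternatives and the within-replicate differences, from the data and not from a label. The main fit did not use them. Replicates 1 and 2 could not be told apart by this check, since WT replicate 1 and TCKO replicate 2 correlated at 0.188 and WT replicate 2 and TCKO replicate 1 at 0.225. The block still held replicates 1 and 2 as separate levels, and only the block on their sums did not. In replicate 3, TCKO had 4583 Xist and 0 Ddx3y counts, and WT had 2 and 936. This pair therefore also differs in these sex-linked genes. Dlk1 and Peg10, which passed with the block, were highest in that TCKO library.

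The alternatives were RLE and upper-quartile factors, no filter except 1 count in all, a minimum mean of 50 counts, an RPKM over 0.24, DESeq2 1.42.0, a robust fit, the replicate block, replicates 1 and 2 summed without and with the block, each library left out, and 0.5 in place of 2 in the within-replicate differences.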

Additional observations from a re-analysis of the deposited data

How the results depend on the processing

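Directions of the 9 listed genes that passed held under every alternative run. Zdbf2, Zim1 and Plagl1 also kept an adjusted p under 0.05 in all of them. Of the listed genes, 3 were higher and 6 lower; with no filter beyond 1 count 6 were higher, with the replicate block 7 were higher, and with replicates 1 and 2 summed 1 was higher and 2 were lower, or 3 lower with the block added to the sums. Leaving out each library in turn gave 2 to 3 higher and 5 to 11 lower listed genes, the 11 without WT replicate 3, while over all genes 603 to 1613 were higher and 550 to 1509 lower, the highest also without WT replicate 3. Of the other imprinted genes, 4 were higher and 7 lower; with the sums 2 were higher and 0 lower (edgeR; 6 were lower at an unadjusted p under 0.05, and DESeq2 on the 6 libraries gave 6), or 3 lower with the block added. Leaving out each library gave 3 to 6 higher and 2 to 10 lower. The sums leave fewer samples, 2 against 2, and over all genes 386 passed in place of 2447, while 3249 passed with the block. The parts of sample number and of the closeness of replicates 1 and 2 in this drop were not tested. Besides the gains of Peg10, Peg3, Peg12, Dlk1 and Rian, the block changed no call of a listed gene, and of these gains those of Peg3, Peg12 and Rian were lost with the block on the sums.

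Signs turned in 6 genes that did not pass, each only when 1 library was left out. These fits gave log2 fold changes of -0.19 to 0.57 for Kcnq1ot1 (-0.10 without WT replicate 1, -0.19 without TCKO replicate 3), -0.31 to 0.64 for Meg3, -0.0083 to 0.12 for Ube3a, -0.030 to 0.21 for Gnas, -0.044 to 0.10 for Impact and -0.22 to 0.27 for Slc38a4; the cause was not tested. The median log2 fold change of the tested listed genes was -0.23 without TCKO replicate 3 and -0.07 with no filter. Depth limits the 9 listed genes that were not tested, with at most 13 counts in a library, and 3 libraries a group with replicates 1 and 2 so close limit the rest.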
